A study of Oryctolagus cuniculus with 20 samples.

Results

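Most of the genes described here encode parts of the machinery with which mitochondria make and take up proteins. The genes are 35 of the 23669 Ensembl genes counted in rabbit tricuspid valves. They were chosen by symbol from the genes that the study listed as changed by a treatment in these same valves, taking every symbol that begins with MRPL, MRPS, TIMM, TOMM, TFAM, TFB, PMPC, LONP, CLPP, CLPX or COA and whose identifier is among the counts. Of 36 such symbols, TFAM could not be matched to an identifier. The list placed 1 gene under all 3 treatments, 20 under both pergolide and dexfenfluramine, 4 under pergolide alone and 10 under dexfenfluramine alone. All 35 passed the filter on low counts, among 8683 genes tested. By role they comprised 13 proteins of the large mitochondrial ribosomal subunit, 11 named for the small subunit, 6 import proteins, 3 assembly factors of respiratory complex IV, and the pair TFB2M and CLPX of the nucleoid and of proteolysis. Neither the assembly factors nor that pair belong to the ribosome or the import machinery. Since the genes were selected on the contrasts with control, every value of those contrasts is a description of the selection.

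The valves came from 20 female New Zealand white rabbits, 8 weeks old at the start, which drank treated or plain water for 16 weeks. The control group had water alone, and the other groups had serotonin at 80 mg/kg/day, the dopamine agonist pergolide at 0.5 mg/kg/day or the appetite suppressant dexfenfluramine at 20 mg/kg/day, with 5 valves each. A passage of the study gives a lower dose of dexfenfluramine than its methods and the sample labels do. Each compound was given at a single dose and the doses differed, so that the groups compare treatments as given. The total count per valve ran from 3247091 to 5921025, and a gene of this set had between 2 and 512 counts in a valve. Levels are given as CPM after TMM normalization, which scales each library so that most genes are level between valves, with the SD over 5 valves. A gene is termed called where its adjusted p was under 0.05 in edgeR's quasi-likelihood test, with Benjamini-Hochberg adjustment over all 8683 genes. Log2 fold changes are followed by their standard error (SE).

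Mitochondria keep a small genome whose messages encode core subunits of the respiratory chain, and they translate these on ribosomes of their own. All proteins of those ribosomes are encoded in the nucleus, made in the cytosol and imported through a translocase of the outer membrane (TOMM proteins) and translocases of the inner membrane (TIMM proteins). In the heart, muscle cells are densely packed with mitochondria, whereas the interstitial and endothelial cells of a valve leaflet hold fewer.

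With dexfenfluramine most of these genes were at lower levels than in control valves, with pergolide many were lower and a few higher, and with serotonin the median lay nearer to control; these directions hold after TMM scaling and not when libraries are scaled to total counts alone, as given below. The mean log2 CPM of the 35 genes was 4.55, 4.22, 3.81, 4.45 and 4.18 in control valves 1 to 5 and 3.85, 4.37, 4.02, 4.28 and 3.98 in serotonin valves 1 to 5. It was 3.99, 4.13, 4.03, 3.69 and 3.59 in pergolide valves and 3.63, 3.60, 3.26, 3.74 and 3.85 in dexfenfluramine valves. Control and serotonin valves overlapped, control 3 also lay below 3 pergolide valves and dexfenfluramine 5, and the other 4 control valves stood above every pergolide and dexfenfluramine valve. The group means were 4.24 ± 0.29 (SD, n = 5) in control, 4.10 ± 0.22 with serotonin, 3.89 ± 0.23 with pergolide and 3.61 ± 0.22 with dexfenfluramine. In bulk tissue, fewer cells of a type and less RNA per cell cannot be told apart.

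Against control, 0 of the 35 genes were called with serotonin, where 1.19% of all tested genes were called. The latter, 103 genes, ranged from 0 without control 2, control 5 or serotonin 1 to 257 without control 3. By edgeR, 4 of the 35 had an unadjusted p under 0.05, and DESeq2 and limma-voom also called 0, with 4 and 2 at that unadjusted level. Over all tested genes that level held 15.8% in edgeR, 15.4% in DESeq2 and 14.1% in limma-voom. With pergolide 17 were called, 14 lower and 3 higher, and 24.8% of all tested genes were called. With dexfenfluramine 29 were called, all of them lower, and 28.9% of all tested genes were called. Nothing is read from these shares, because the genes were selected on the same contrasts. The median log2 fold change of the 35 genes was −0.14 with serotonin (0.09 with svaseq variables, described below), −0.46 with pergolide and −0.72 with dexfenfluramine, where that of all tested genes was 0.01, 0.02 and 0.03. The SE of a single gene was between 0.11 and 0.48 over these contrasts. Every pergolide valve lay below every control valve for 5 of the genes, MRPL13, MRPL47, MRPS5, MRPS9 and TIMM8B, as did 8.34% of all tested genes. The same held with dexfenfluramine for 13, against 8.71% of all tested genes, namely MRPL47, MRPS5 and TIMM8B from the former set and COA6, COA7, MRPL15, MRPL24, MRPL30, MRPL50, MRPS10, MRPS22, TIMM21 and TIMM23B.

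**Figure D1:**
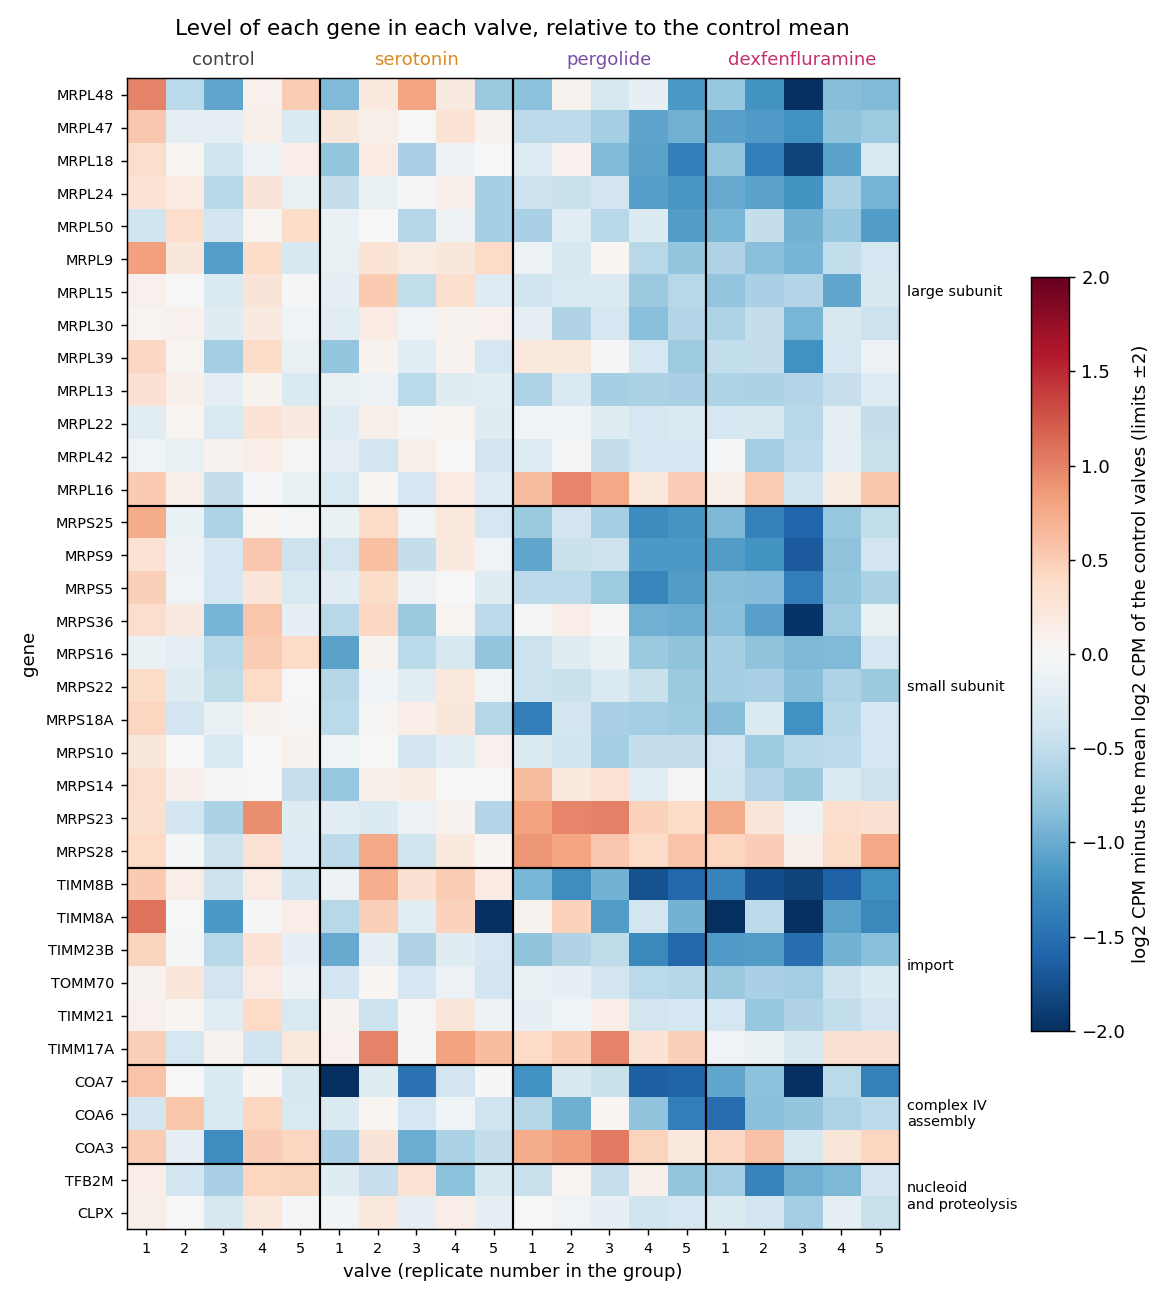
Log2 CPM of each of the 35 genes (vertical axis, by class) in each of the 20 valves (horizontal axis, by group), minus the mean over the control valves, in color from blue (lower) to red (higher). Most genes are blue in the dexfenfluramine valves, with dexfenfluramine 3 the lowest of its group for 25 genes, while a few such as MRPL16, MRPS23, MRPS28 and COA3 are red in the pergolide valves; the color is relative to TMM scaling, and under scaling to total counts alone the median of the 35 genes was 0.02 with dexfenfluramine.

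The direction depended on the scaling. The most abundant gene took between 20.3% and 48.1% of the counts of a valve, and TMM factors ran from 0.58 to 1.72. When libraries were scaled to total counts without TMM factors, an alternative chosen after seeing the data, the median of all tested genes moved to 0.13 with serotonin, 0.46 with pergolide and 0.70 with dexfenfluramine. On that scale the median of the 35 genes was 0.0033, 0.01 and 0.02, no longer below 0. Relative to the median of all genes it was −0.13, −0.45 and −0.67, beside −0.15, −0.48 and −0.75 with TMM. So "lower" here means lower relative to the other genes of the same valves. With total counts, 7 of the 35 genes were called with pergolide, 6 of them higher, and 7 with dexfenfluramine, 5 of them higher, where 27.4% and 58.7% of all tested genes were called. Over all tested genes the share of calls that were higher went from 48.8% to 96.3% with pergolide and from 46.8% to 97.7% with dexfenfluramine. With serotonin it was 87.4% of 103 calls with TMM and 74.3% of 74 with upper-quartile factors, and total counts left 2 calls.

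In limma-voom 16 of the 35 genes were called with pergolide and 24 with dexfenfluramine, beside 2085 and 2398 of all 8683 tested genes. The study itself used limma-voom, after looking for unwanted variation with svaseq and RUVr, and did not give the number of variables. RUVr was not run here. Adding 4 surrogate variables estimated by svaseq to the limma-voom fit changed the counts. It called 8 of the 35 genes with pergolide, 6 higher and 2 lower, and 5 with dexfenfluramine, 3 higher and 2 lower. Over all tested genes the calls also became fewer, at 13.3% and 11.4%. TIMM8B and MRPL30 were the genes called lower with pergolide in that fit, and TIMM8B and MRPL47 with dexfenfluramine. The median of the 35 genes was −0.18 and −0.24 there, and with serotonin it turned to 0.09. The drug medians were below 0 under every other alternative tried apart from total counts.

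**Figure D2:**
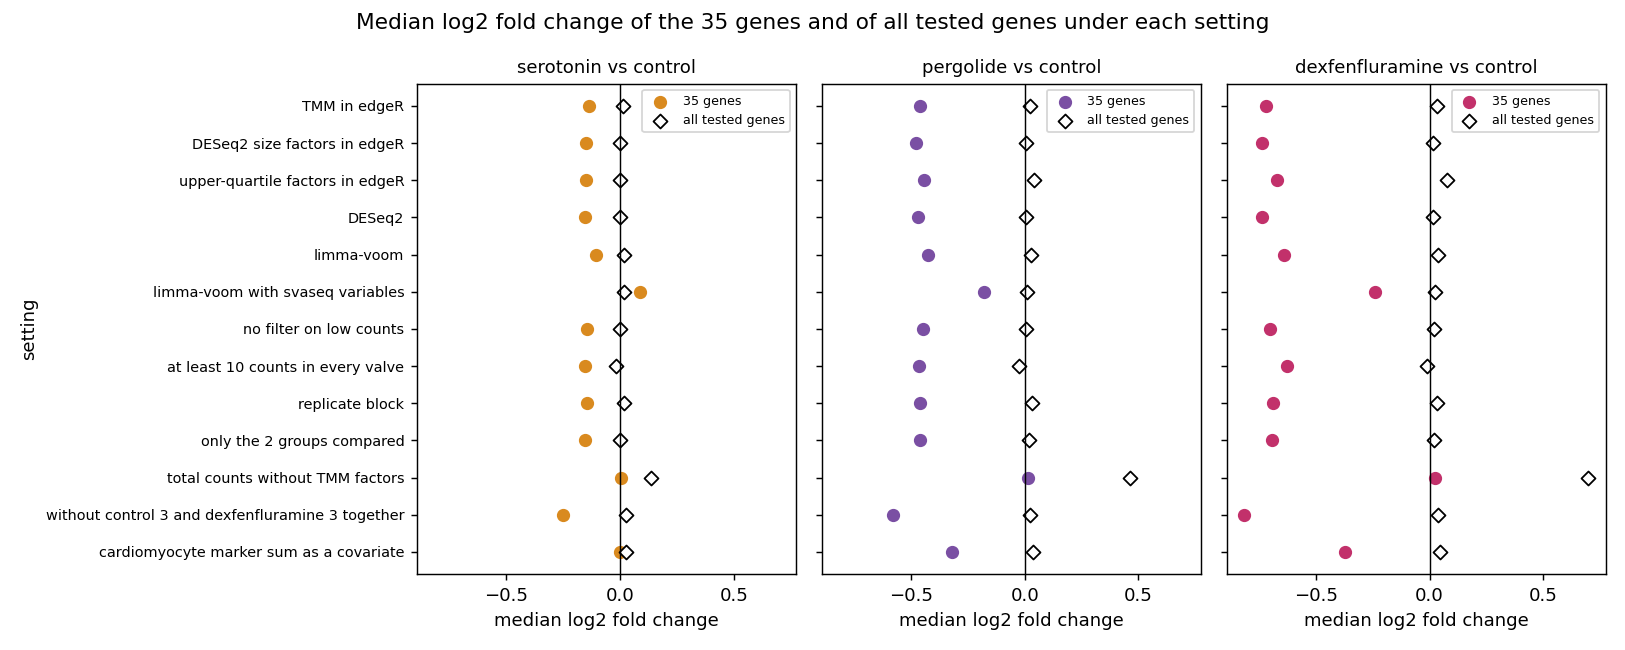
Median log2 fold change against control of the 35 genes (colored points) and of all tested genes (open diamonds) under each setting, in a panel for each treatment. The 35 genes lie left of all tested genes in every setting of the pergolide and dexfenfluramine panels; with total counts their own medians come to 0.01 and 0.02, and with svaseq variables the serotonin median turns to 0.09.

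The valves of a group were not alike, and the same valves tended to be high or low for many of these genes. Control 3 was the lowest control valve for 24 of the 35 genes and for 23.3% of all tested genes, and control 1 was the highest for 20 and for 23.3%. Dexfenfluramine 3 was the lowest of its group for 25 genes and for 30.5% of all tested genes, whereas dexfenfluramine 5 was the highest for 19 and for 20.6%. Among pergolide valves, 5 and 4 were the lowest for 16 and 14 genes and for 20.8% and 18.6% of all tested genes, and among serotonin valves, 2 was the highest for 20 and for 26.9%.

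Transcripts of heart muscle were measured beside these genes. Of 16 cardiomyocyte markers 10 could be matched, all of them from the study's own list of changed genes and none at 0, and TTN, which encodes the sarcomeric protein titin, made up 70.7% of their sum. The summed level was 143700, 107300, 49610, 152200 and 97940 CPM in control valves 1 to 5 and 53640, 104700, 60770, 97850 and 63950 CPM in serotonin valves. It was 82540, 92530, 92910, 52780 and 48120 CPM in pergolide valves and 71200, 52750, 12490, 60660 and 71650 CPM in dexfenfluramine valves. Control 3 and dexfenfluramine 3 had the lowest sums of their groups, as they had the lowest mean of the 35 genes, and pergolide 4 and 5 the lowest of theirs. The mean was 110200 ± 40980 CPM (SD, n = 5) in control, 76180 ± 23330 with serotonin, 73780 ± 21760 with pergolide and 53750 ± 24370 with dexfenfluramine. Its genes differed: TNNT2 was called lower with both drugs, at −2.27 ± 0.45 with pergolide and −2.79 ± 0.46 with dexfenfluramine, and MYH7, TNNC1 and PLN with dexfenfluramine, at −1.45 ± 0.44, −1.84 ± 0.49 and −1.24 ± 0.35. TTN was at −0.44 ± 0.37 and −0.89 ± 0.38, and ACTC1 at −0.01 ± 0.37 and −0.69 ± 0.37, none of them called.

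With the log of that sum as a covariate, chosen after seeing the data, the median log2 fold change of the 35 genes was −0.0007 with serotonin, −0.32 with pergolide and −0.37 with dexfenfluramine. In that fit 16 genes were called with pergolide, 11 lower and 5 higher, and 12 with dexfenfluramine, 8 lower and 4 higher, where 27.2% and 19.2% of all tested genes were called. Without control 3 and dexfenfluramine 3, again chosen after seeing the data, the medians were −0.58 with pergolide and −0.82 with dexfenfluramine, and 21 and 25 genes were called, where 28.4% and 28.3% of all tested genes were.

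**Figure D3:**
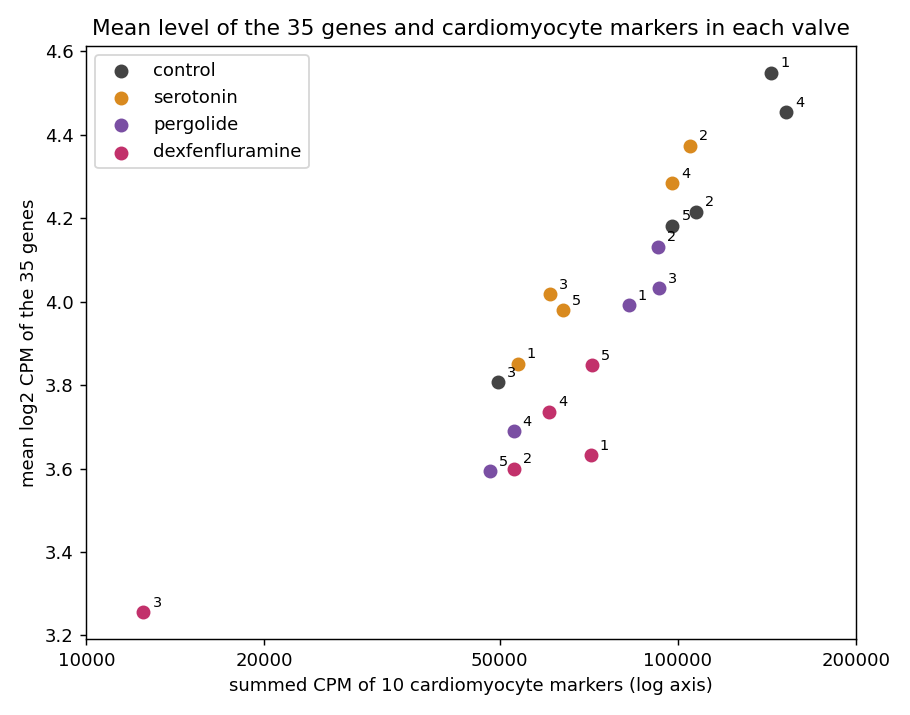
Mean log2 CPM of the 35 genes (vertical axis) against the summed CPM of 10 cardiomyocyte markers (horizontal log axis) in each valve, colored by group and numbered by replicate. Dexfenfluramine 3 is lowest on both axes, at 3.26 and 12490 CPM, and control 1 and control 4 are highest on both.

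Markers of the interstitial cells that build the leaflet were detected in every valve, with 6 of 8 matched and VIM, which encodes vimentin, at 39.0% of their sum. That sum was 6799, 6074, 7477, 5028 and 5451 CPM in control valves 1 to 5, 7078, 5619, 7485, 6878 and 6958 with serotonin, 7210, 8006, 6839, 8687 and 10360 with pergolide and 8364, 9069, 10710, 7565 and 8422 with dexfenfluramine. It had a mean of 6166 ± 992 CPM in control, 6804 ± 702 with serotonin, 8220 ± 1394 with pergolide and 8826 ± 1181 with dexfenfluramine. Its genes differed: COL1A1, COL1A2 and COL3A1 were called higher with both drugs, at 1.15 ± 0.24, 0.96 ± 0.17 and 0.95 ± 0.17 with dexfenfluramine, and LUM with pergolide, at 0.68 ± 0.17, while VIM, at −0.08 ± 0.19 with pergolide and 0.37 ± 0.19 with dexfenfluramine, and DCN were not called. Endothelial markers (2 of 7 matched, PECAM1 78.1% of the sum) summed to 257, 314, 322, 135 and 303 CPM in control valves 1 to 5, 259, 325, 336, 277 and 284 with serotonin, 216, 149, 117, 194 and 148 with pergolide and 170.4, 205, 264, 201 and 232 with dexfenfluramine. Smooth muscle markers (2 of 5, MYH11 91.2%) summed to 67.8, 46.1, 20.01, 67.7 and 41.2 CPM in control valves 1 to 5, 32.1, 75.3, 29.5, 59.5 and 42.7 with serotonin, 49.6, 35.9, 26.8, 32.4 and 31.8 with pergolide and 25.4, 21.4, 14.04, 20.7 and 31.4 with dexfenfluramine. The endothelial sum was lowest on average with pergolide, where PECAM1 and EMCN were called lower, at −0.73 ± 0.21 and −0.54 ± 0.18. The smooth muscle genes went apart with dexfenfluramine, with MYH11 at −1.41 ± 0.36 and TAGLN at 1.36 ± 0.35, both called, and with pergolide TAGLN was called higher, at 0.99 ± 0.36. Adipocyte markers (3 of 7, ADIPOQ 69.0%) summed to 33.9, 21.9, 24.2, 70.01 and 28.99 CPM in control valves 1 to 5, 133, 28.5, 79.2, 58.2 and 67.4 with serotonin, 176, 169, 97.6, 55.6 and 115 with pergolide and 57.7, 93.6, 3.24, 32.4 and 100.2 with dexfenfluramine. Adipocyte markers were highest with pergolide, where ADIPOQ, LEP and CIDEA were called higher, at 1.46 ± 0.51, 2.25 ± 0.71 and 2.86 ± 0.66. S100B, a marker of Schwann cells, was called lower with pergolide, at −0.94 ± 0.32. No matched marker of these lists was at 0 in every valve, and 0 macrophage, erythroid or chondrocyte markers could be matched to an identifier. The part of these cell types in the levels of the 35 genes was not tested.

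Of the 13 large-subunit genes, 5 were called lower and 1 higher with pergolide, and 11 were called lower with dexfenfluramine. The shares of all tested genes called were 24.8% and 28.9%. The class median log2 fold change was −0.14 with serotonin (0.05 with svaseq variables and 0.0033 with total counts), −0.50 with pergolide and −0.66 with dexfenfluramine. With total counts it was −0.02 and 0.05 for the drugs, the latter above 0, or −0.48 and −0.65 relative to all genes. With svaseq variables the drug medians of the class were −0.18, the value of MRPL22, and −0.23, that of MRPL30. MRPL47 (ENSOCUG00000017886), a counterpart of a bacterial ribosomal protein near the exit of the tunnel through which new chains leave, was at 41.8, 25.5, 25.1, 31.2 and 23.5 CPM in control valves 1 to 5 and 33.5, 31.3, 28.9, 34.9 and 30.1 CPM with serotonin. It was at 19.9, 19.99, 17.9, 13.9 and 14.8 CPM in pergolide valves and 13.6, 13.1, 12.4, 16.4 and 17.3 CPM in dexfenfluramine valves. Control 1 was high, and every valve given either drug lay below every control and serotonin valve. The log2 fold changes against control were 0.13 ± 0.15, −0.75 ± 0.15 and −0.997 ± 0.15 with serotonin, pergolide and dexfenfluramine. With svaseq variables the drug values were −0.44 and −0.57, the former not called, and with total counts −0.29 and −0.31, neither called, or −0.75 and −1.01 relative to all genes. MRPL48 (ENSOCUG00000025915), a protein that bacterial ribosomes lack, was at 9.38, 3.25, 2.28, 5.00 and 6.67 CPM in control valves and 2.56, 5.38, 8.18, 5.36 and 2.81 CPM with serotonin. Its levels were 2.68, 4.96, 3.79, 4.22 and 2.13 CPM with pergolide and 2.80, 2.07, 1.08, 2.61 and 2.56 CPM with dexfenfluramine. Its control valves spread widely, with control 1 the highest and control 3 the lowest, and dexfenfluramine 1, 4 and 5 lay above control 3. The fold changes were −0.09 ± 0.37, −0.52 ± 0.37 and −1.20 ± 0.39, on 6 to 29 counts a valve. The last was −0.33 with svaseq variables, −0.50 with total counts and −0.54 with the cardiomyocyte covariate, not called in any of these. In the same settings the serotonin value turned to 0.89, 0.08 and 0.23, not called. The pergolide value turned to 0.20 with svaseq variables, also not called.

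Among the other large-subunit genes, MRPL22 and MRPL24 encode proteins near the tunnel exit, with log2 fold changes against control of −0.08, −0.22 and −0.38 and −0.23, −0.68 and −0.97 for serotonin, pergolide and dexfenfluramine in that order. MRPL9 was at 0.09, −0.41 and −0.72, MRPL13 at −0.25, −0.57 and −0.51, MRPL15 at 0.03, −0.45 and −0.66, MRPL18 at −0.25, −0.60 and −0.98 and MRPL30 at 0.01, −0.50 and −0.54, and these 5 also have bacterial counterparts. MRPL39 (−0.24, −0.12 and −0.51), MRPL42 (−0.16, −0.29 and −0.37) and MRPL50 (−0.31, −0.57 and −0.86) do not. With pergolide MRPL13, MRPL24, MRPL30, MRPL47 and MRPL50 were called lower, and MRPL16, described below with the other genes at higher levels, was called higher. With dexfenfluramine MRPL16 and MRPL39 were the genes of the class that were not called. A single valve decided some calls. The pergolide call of MRPL50 was lost without control 2, 4 or 5 or pergolide 1, 3 or 5, at −0.58 to −0.45. The dexfenfluramine call of MRPL48 was lost without control 1 or 5 or dexfenfluramine 3, at −1.09 to −0.94, that of MRPL22 without control 4 or dexfenfluramine 3, at −0.34 to −0.32, that of MRPL42 without control 1, 3, 4 or 5 or dexfenfluramine 2, 3 or 5, at −0.40 to −0.30, and that of MRPL9 without control 1, 2 or 4 or dexfenfluramine 1, 2 or 3, at −0.72 to −0.50. Of the called genes, MRPL9, MRPL13, MRPL15, MRPL22, MRPL30 and MRPL42 turned above 0 with dexfenfluramine when scaled to total counts, while all stayed below the median of all genes, and with svaseq variables MRPL9 and MRPL18 turned to 0.14 and 0.04. MRPL39, not called, turned to 0.19 with total counts, 0.31 with svaseq variables and 0.08 with the cardiomyocyte covariate.

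Of the 11 genes named for the small subunit, 6 were called lower and 2 higher with pergolide, and 9 were called lower with dexfenfluramine. The shares of all tested genes called were 24.8% and 28.9%. The class median was −0.11 with serotonin (0.15 with svaseq variables and 0.02 with total counts), −0.49 with pergolide and −0.73 with dexfenfluramine. With total counts it was 0.01 for pergolide and 0.0036 for dexfenfluramine, above 0, or −0.45 and −0.69 relative to all genes. With svaseq variables the drug medians of the class were −0.23, the value of MRPS10, and −0.24, that of MRPS5. MRPS25 (ENSOCUG00000006984), a protein particular to mitochondrial ribosomes, was at 63.5, 34.7, 24.8, 38.8 and 37.05 CPM in control valves and 34.5, 49.4, 35.9, 43.98 and 30.1 CPM with serotonin. With pergolide it was at 22.6, 29.1, 23.6, 15.8 and 16.7 CPM and with dexfenfluramine at 20.4, 14.8, 12.6, 22.4 and 27.1 CPM. Both drug groups lay below every serotonin valve, and only pergolide 2 and dexfenfluramine 5 exceeded the lowest control valve, control 3. Against control the log2 fold changes were −0.02 ± 0.23 with serotonin, −0.86 ± 0.23 with pergolide and −1.01 ± 0.24 with dexfenfluramine. MRPS9 (ENSOCUG00000015017), with a bacterial counterpart in the head of the subunit, was at 80.4, 61.5, 52.3, 95.9 and 49.5 CPM in control valves and 50.8, 99.7, 47.3, 75.6 and 62.9 CPM with serotonin. Pergolide valves had 31.99, 48.2, 49.1, 29.7 and 29.7 CPM and dexfenfluramine valves 30.3, 28.8, 20.7, 37.6 and 50.6 CPM. Control 4 and serotonin 2 were the highest, pergolide valves ended just under the lowest control valve, and dexfenfluramine 5 reached into the control range. This gave log2 fold changes of −0.01 ± 0.24, −0.84 ± 0.25 and −1.003 ± 0.25 for serotonin, pergolide and dexfenfluramine. With svaseq variables or total counts neither gene was called with either drug, at −0.12 and −0.32 for MRPS25 and −0.29 and −0.32 for MRPS9 with dexfenfluramine. The cardiomyocyte covariate left them called with pergolide, at −0.60 and −0.58, but not with dexfenfluramine, at −0.46 and −0.45.

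MRPS5, MRPS10, MRPS14 and MRPS16, all with bacterial counterparts, had log2 fold changes against control of −0.05, −0.83 and −0.90, −0.11, −0.46 and −0.50, −0.08, 0.20 and −0.49 and −0.53, −0.49 and −0.75 for serotonin, pergolide and dexfenfluramine. MRPS22, which bacteria lack, was at −0.15, −0.49 and −0.73. MRPS18A, whose protein sits in the large subunit in spite of its name, was at −0.13, −0.73 and −0.62, and MRPS36, whose product is now known as a component of the oxoglutarate dehydrogenase complex, at −0.27, −0.37 and −0.89. MRPS14 was the gene of this class that was higher than control with pergolide and called lower with dexfenfluramine. The pergolide call of MRPS22 was lost without control 1 or 4 or pergolide 4 or 5, at −0.49 to −0.40. With dexfenfluramine the call of MRPS18A was lost without control 1 or 4 or dexfenfluramine 1 or 3, at −0.62 to −0.50, that of MRPS14 without control 1, 2, 3 or 4 or dexfenfluramine 1, 2, 3 or 5, at −0.51 to −0.42, and that of MRPS36 without control 1, 2 or 4 or dexfenfluramine 1, 2, 3 or 4, at −0.92 to −0.71. Among called genes, scaling to total counts turned MRPS10, MRPS14, MRPS18A and MRPS22 above 0 with dexfenfluramine, and MRPS10 and MRPS22 with pergolide, while all of these values stayed below the median of all genes. With svaseq variables MRPS36 turned to 0.24 with dexfenfluramine.

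Of the 6 import genes, 3 were called lower with pergolide (TIMM8B, TIMM23B and TOMM70) and 5 with dexfenfluramine (these and TIMM8A and TIMM21). The shares of all tested genes called were 24.8% and 28.9%. The class median was −0.13 with serotonin (0.23 with svaseq variables and 0.02 with total counts), −0.34 with pergolide and −0.83 with dexfenfluramine. With total counts it was 0.13 with pergolide, above 0, and −0.13 with dexfenfluramine, or −0.33 and −0.83 relative to all genes. With svaseq variables the pergolide median of the class lay between −0.20 (TIMM21) and −0.03 (TOMM70). The dexfenfluramine median there lay between −0.36 (TIMM23B) and −0.22 (TIMM8A). TIMM8B (ENSOCUG00000017358), a small chaperone that escorts membrane proteins across the intermembrane space, was at 28.1, 21.4, 14.6, 21.8 and 14.7 CPM in control valves and 18.2, 32.3, 23.96, 27.6 and 21.9 CPM with serotonin. It was at 10.3, 8.20, 10.1, 5.80 and 6.58 CPM with pergolide and 7.75, 5.69, 5.40, 6.34 and 8.34 CPM with dexfenfluramine. No valve given either drug reached the lowest control valve, control 3, nor the lowest serotonin valve, and serotonin 2 was the highest of all. Its log2 fold changes, 0.32 ± 0.20 with serotonin, −1.28 ± 0.21 with pergolide and −1.56 ± 0.21 with dexfenfluramine, included the lowest of the 35 genes for each drug. With svaseq variables the drug values were −0.74 and −0.80, with total counts −0.80 and −0.87, and with the cardiomyocyte covariate −1.07 and −1.12, each called for both drugs.

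TIMM23B (ENSOCUG00000000525) has the symbol of a near copy of TIMM23, the channel of the inner membrane. Whether the rabbit counts keep such copies apart was not tested, so the values of TIMM23B are uncertain. It was at 51.9, 37.7, 26.2, 46.5 and 34.3 CPM in control valves and 19.1, 33.9, 25.1, 32.2 and 30.3 CPM with serotonin. Its levels were 21.8, 25.3, 26.8, 15.7 and 12.8 CPM with pergolide and 17.4, 17.6, 13.5, 19.9 and 21.3 CPM with dexfenfluramine. Serotonin 1 and 3 lay below every control valve, pergolide 3 reached just above control 3, and all dexfenfluramine valves lay below all control valves. Log2 fold changes against control were −0.47 ± 0.21, −0.93 ± 0.21 and −1.11 ± 0.21. It was the gene that the study's list placed under all treatments, and the serotonin difference was not called here. The drug values were −0.43 and −0.36 with svaseq variables, neither called, −0.45 and −0.40 with total counts, the latter called, and −0.71 and −0.62 with the cardiomyocyte covariate, both called.

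TIMM8A, a partner protein of the same kind as TIMM8B and mutated in a syndrome of deafness and dystonia, was at −0.25, −0.33 and −1.41 with serotonin, pergolide and dexfenfluramine, on the fewest counts of the set, with the SE of the dexfenfluramine value at 0.48. TIMM21, which links the inner-membrane channel to the outer membrane, was at −0.03, −0.17 and −0.52. TOMM70, an outer-membrane receptor for carrier proteins, was at −0.24, −0.36 and −0.55. The pergolide call of TOMM70 was lost without control 1, 2 or 4 or pergolide 3, 4 or 5, at −0.35 to −0.31. The dexfenfluramine call of TIMM8A was lost without control 1 or 5 or dexfenfluramine 1, 3 or 5, at −1.43 to −1.10. The value was −0.22 with svaseq variables and −0.71 with total counts, neither called. The pergolide value of TIMM8A turned to 0.63 with svaseq variables and to 0.15 with total counts, −0.31 relative to all genes. Its serotonin value turned to 0.27 with svaseq variables. The cardiomyocyte covariate gave 0.08 with pergolide and 0.11 with serotonin. With total counts TOMM70 turned to 0.11 with pergolide and 0.15 with dexfenfluramine and TIMM21 to 0.17 with dexfenfluramine, all of them below the median of all genes.

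The 3 assembly factors of complex IV, the cytochrome c oxidase that passes electrons to oxygen, split in direction with pergolide. By edgeR 0 were called with pergolide, although all 3 had an unadjusted p under 0.05 (DESeq2 called COA7 and limma-voom called COA6), and COA6 and COA7 were called lower with dexfenfluramine. The shares of all tested genes called by edgeR were 24.8% and 28.9%, and 37.1% had an unadjusted p under 0.05 with pergolide. COA7 (ENSOCUG00000016049), needed to build complex IV, was at 7.21, 4.88, 4.04, 5.00 and 3.91 CPM in control valves and 1.17, 4.11, 1.75, 3.75 and 4.78 CPM with serotonin. With pergolide it was at 2.11, 3.93, 3.58, 1.58 and 1.60 CPM and with dexfenfluramine at 2.37, 2.76, 0.540, 3.35 and 1.92 CPM. Serotonin 1 and 3 were low, pergolide 2 lay just above the lowest control valve, control 5, and all dexfenfluramine valves lay below control, dexfenfluramine 3 on 3 counts. In log2 terms the differences from control were −0.67 ± 0.39, −0.94 ± 0.38 and −1.16 ± 0.39. COA6 (ENSOCUG00000017413), which helps deliver copper to the oxidase and whose mutation causes a cardiomyopathy of infancy, was at 2.89, 5.42, 2.98, 5.00 and 2.99 CPM in control valves and 3.03, 3.80, 2.92, 3.49 and 2.81 CPM with serotonin. Its levels were 2.49, 1.88, 3.79, 2.11 and 1.42 CPM with pergolide and 1.29, 2.07, 2.16, 2.42 and 2.56 CPM with dexfenfluramine. Control 2 and 4 stood above the other control valves, pergolide 3 lay in the control range, and dexfenfluramine valves lay below every control valve. Its log2 fold changes were −0.26 ± 0.27, −0.72 ± 0.26 and −0.84 ± 0.27. The dexfenfluramine call of COA7 was lost without control 1 or dexfenfluramine 3 or 5, at −1.11 to −0.91, and that of COA6 without control 2 or 4 or dexfenfluramine 1, at −0.75 to −0.70; with total counts, svaseq variables or the cardiomyocyte covariate neither was called, at −0.51, −0.30 and −0.44 for COA7 and −0.16, −0.50 and −0.63 for COA6.

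TFB2M (ENSOCUG00000013727), which starts transcription at the promoters of mitochondrial DNA, was at 5.77, 4.06, 3.34, 7.06 and 7.13 CPM in control valves and 4.43, 3.80, 6.43, 2.95 and 4.21 CPM with serotonin. It was at 3.83, 5.47, 3.79, 5.63 and 3.02 CPM with pergolide and 3.23, 2.07, 2.70, 2.80 and 4.01 CPM with dexfenfluramine. Control 2 and 3 were the low control valves, and dexfenfluramine 5 was the valve of its group that lay above control 3, while most serotonin and pergolide valves lay in the control range. The log2 fold changes were −0.31 ± 0.27, −0.31 ± 0.25 and −0.86 ± 0.26, and the dexfenfluramine call was lost without control 4 or 5 or dexfenfluramine 2, at −0.76 to −0.74. CLPX (ENSOCUG00000007293), the unfoldase of a protease in the matrix, was at 99.9, 92.7, 73.7, 107 and 90.7 CPM in control valves and 88.3, 107, 82.1, 101.4 and 80.3 CPM with serotonin. Pergolide valves had 92.3, 87.5, 82.2, 69.5 and 72.8 CPM and dexfenfluramine valves 75.1, 70.7, 57.8, 80.5 and 67.8 CPM. Dexfenfluramine 1 and 4 exceeded control 3, the lowest control valve, and the pergolide values lay mostly within the control range. The log2 fold changes of −0.01 ± 0.11, −0.20 ± 0.11 and −0.40 ± 0.11 included a dexfenfluramine call, which turned to 0.31 with total counts, −0.39 relative to all genes. Neither gene was called with svaseq variables or with the cardiomyocyte covariate, where the dexfenfluramine values were −0.71 and −0.68 for TFB2M and −0.12 and −0.14 for CLPX.

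**Figure D4:**
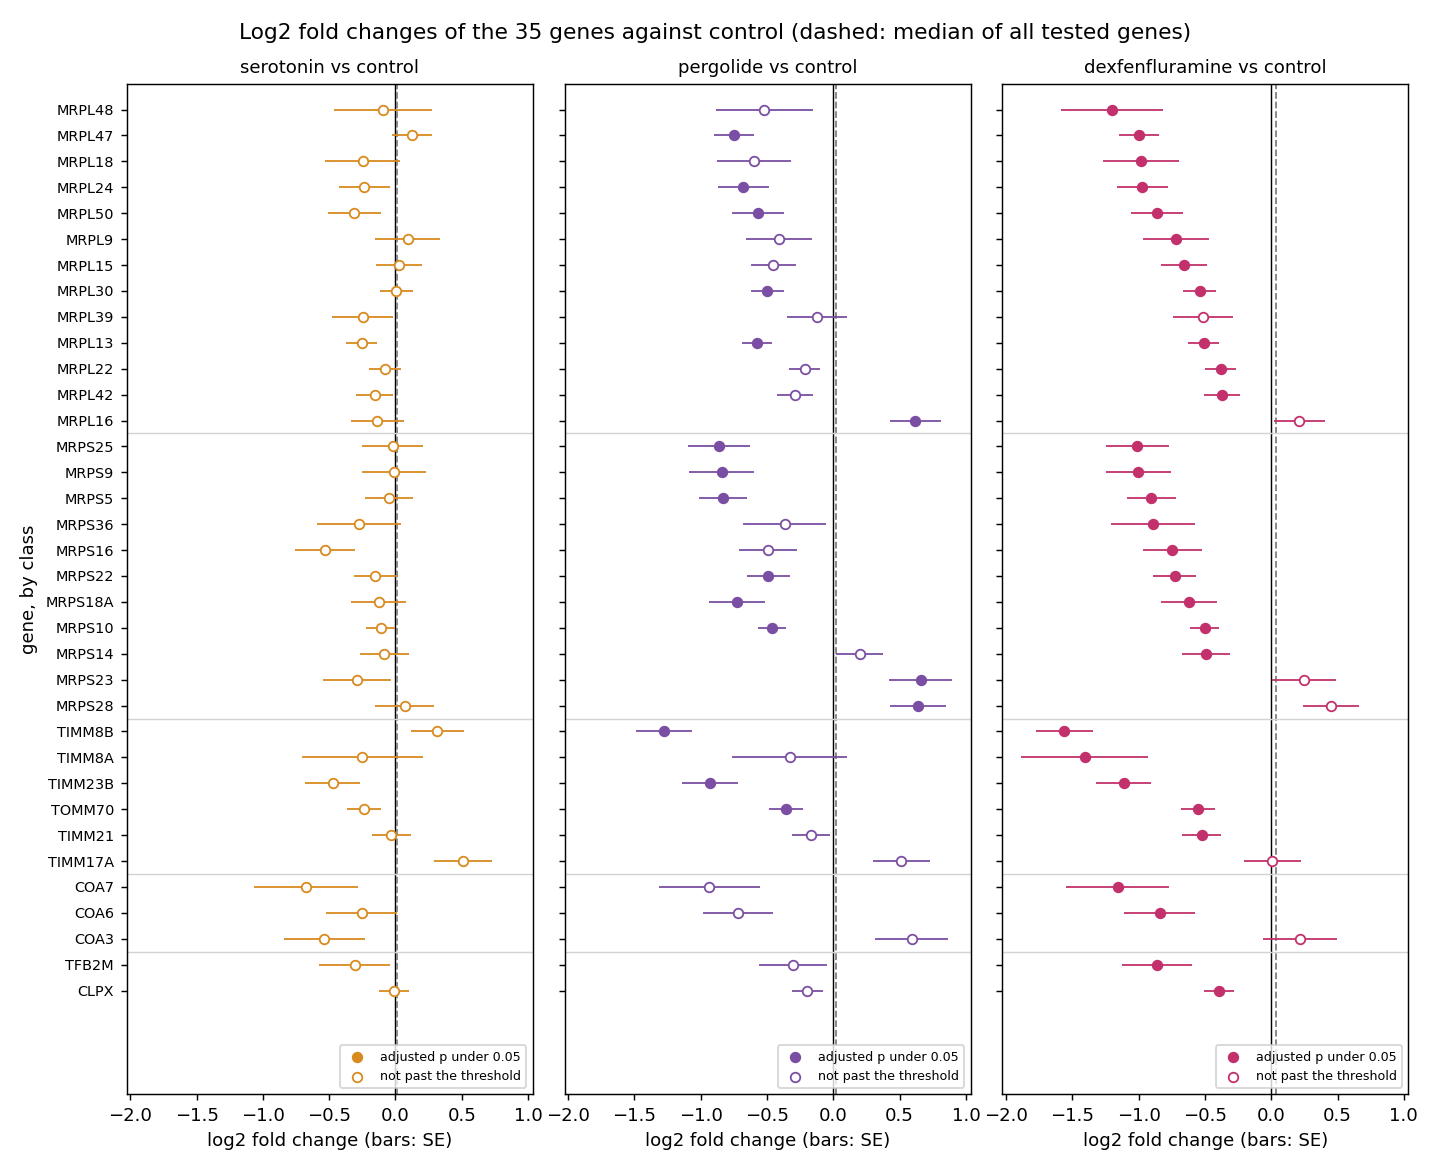
Log2 fold change against control (horizontal axis) of each gene (vertical axis, by class) with serotonin, pergolide and dexfenfluramine, with bars for the SE, filled points for an adjusted p under 0.05 and a dashed line for the median of all tested genes. With dexfenfluramine 29 filled points lie left of 0, and with pergolide 14 lie left and 3 right; with total counts in place of TMM the splits were 2 left and 5 right for dexfenfluramine and 1 left and 6 right for pergolide.

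With pergolide 6 genes were at higher levels than control, and MRPL16, MRPS23 and MRPS28 of them were called. MRPL16, MRPS23, COA3 and TIMM17A made up all 4 genes that the study listed for pergolide alone. MRPL16 (ENSOCUG00000013390), whose bacterial counterpart lies near the center where peptide bonds form, was at 23.1, 17.3, 11.6, 15.9 and 14.5 CPM in control valves and 13.1, 16.8, 12.6, 17.97 and 13.5 CPM with serotonin. It was at 24.5, 31.4, 27.4, 18.6 and 22.6 CPM with pergolide and 17.4, 22.8, 12.2, 17.7 and 23.6 CPM with dexfenfluramine. Every pergolide valve lay above every serotonin valve, and pergolide 1, 2 and 3 above every control valve. The log2 fold changes against control were −0.14 ± 0.20, 0.62 ± 0.19 and 0.21 ± 0.19. MRPS23 (ENSOCUG00000003350), absent from bacteria, was at 11.5, 7.04, 5.97, 17.6 and 7.82 CPM in control valves and 7.92, 7.60, 8.47, 9.65 and 6.18 CPM with serotonin. With pergolide it was at 16.1, 18.1, 18.5, 12.7 and 11.9 CPM and with dexfenfluramine at 15.5, 10.9, 8.64, 11.7 and 11.4 CPM. Control 4 stood far above the other control valves, and pergolide valves exceeded those others and all serotonin valves. Log2 fold changes came to −0.29 ± 0.26, 0.66 ± 0.24 and 0.25 ± 0.24.

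MRPS28 (ENSOCUG00000000867), another small-subunit gene, was at 10.1, 7.59, 5.79, 9.41 and 6.44 CPM in control valves and 5.36, 12.98, 5.84, 8.85 and 7.87 CPM with serotonin. Pergolide valves had 14.2, 13.3, 11.2, 10.02 and 11.4 CPM and dexfenfluramine valves 10.3, 10.9, 8.28, 10.1 and 13.1 CPM. Serotonin 2 was as high as the pergolide valves, and pergolide 4 was the valve of its group that did not exceed control 1. Its log2 fold changes came to 0.07 ± 0.22, 0.64 ± 0.21 and 0.45 ± 0.21, the last not called although the study listed the gene under both drugs. COA3 (ENSOCUG00000015948), which tunes the translation of the largest oxidase subunit, was at 8.30, 5.15, 2.46, 8.24 and 7.82 CPM in control valves and 3.73, 6.96, 2.92, 3.75 and 4.21 CPM with serotonin. Its levels were 9.77, 10.4, 12.01, 7.91 and 6.76 CPM with pergolide and 7.75, 8.79, 4.68, 6.90 and 7.86 CPM with dexfenfluramine. Control 3 was low, pergolide 1, 2 and 3 lay above all control valves, and serotonin 2 was the serotonin valve that reached the pergolide range. This made log2 fold changes of −0.53 ± 0.31, 0.59 ± 0.27 and 0.21 ± 0.28. TIMM17A (ENSOCUG00000007498), a subunit of the inner-membrane translocase that also holds TIMM23 and TIMM21, was at 11.9, 6.77, 8.95, 6.47 and 9.89 CPM in control valves and 9.09, 17.1, 8.47, 15.02 and 13.2 CPM with serotonin. It was at 11.3, 12.1, 17.1, 10.4 and 11.9 CPM with pergolide and 8.18, 7.75, 6.84, 10.6 and 10.6 CPM with dexfenfluramine. Serotonin 2, 4 and 5 and pergolide 2 and 3 lay above every control valve, pergolide 5 lay just above the highest, control 1, and dexfenfluramine valves lay within the control range. In log2 terms it differed from control by 0.51 ± 0.22, 0.51 ± 0.21 and 0.01 ± 0.22.

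The calls of these genes varied with the valves and settings. The pergolide call of MRPL16 was lost without control 3 or 5 or pergolide 2, at 0.51 to 0.57, that of MRPS23 without control 1, 2, 3 or 5 or pergolide 1, 2 or 3, at 0.50 to 0.71, and that of MRPS28 without control 2, 3 or 5 or pergolide 1 or 2, at 0.54 to 0.62. With total counts, svaseq variables or the cardiomyocyte covariate, each of MRPL16, MRPS23, MRPS28, COA3 and TIMM17A was called higher with pergolide. The pergolide values with svaseq variables were 1.03 for MRPL16, 0.73 for MRPS23, 1.11 for MRPS28, 1.12 for COA3 and 0.91 for TIMM17A. With dexfenfluramine, MRPL16, MRPS28 and COA3 were called higher in each of those settings, at 0.82, 1.13 and 0.97 with svaseq variables and 0.63, 0.82 and 0.80 with the cardiomyocyte covariate. MRPS23 was called higher with dexfenfluramine with total counts, at 0.98, and with the covariate, at 0.71, and TIMM17A with total counts, at 0.64 or −0.05 relative to all genes. MRPS14 and MRPL39 were called higher with pergolide in single settings, MRPS14 at 0.63 with total counts and MRPL39 at 0.39 with svaseq variables.

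**Figure D5:**
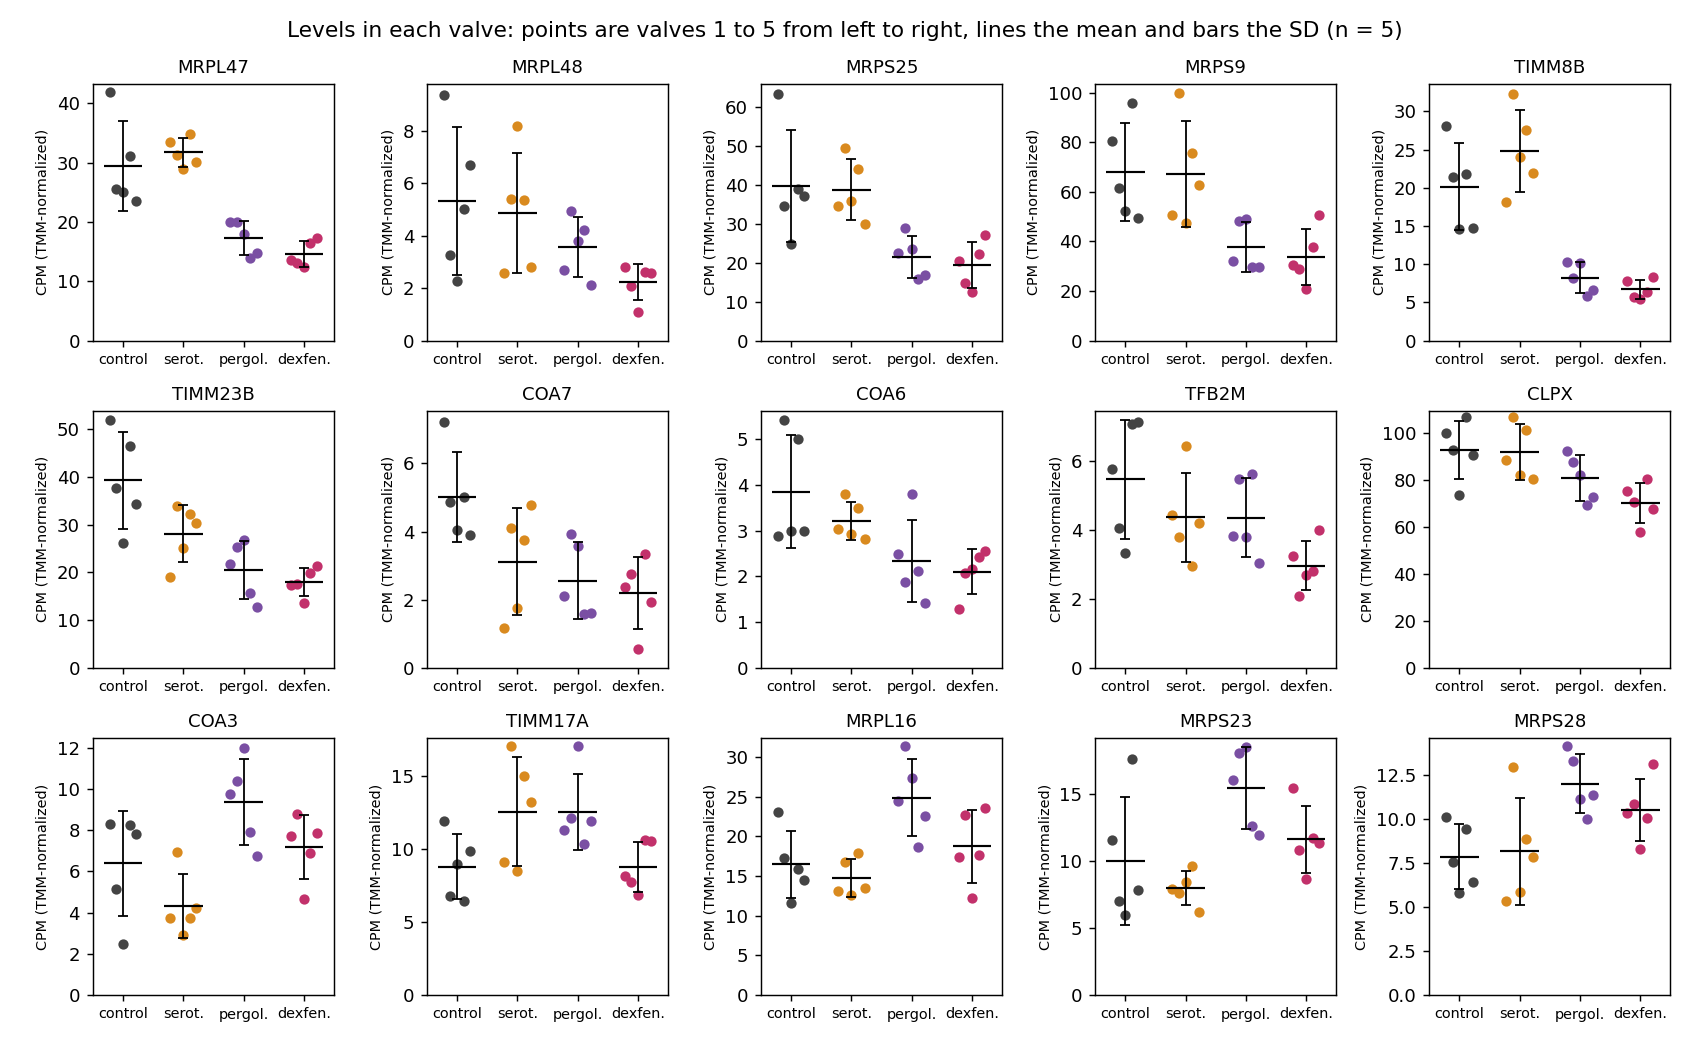
CPM (vertical axis, from 0) of the 15 genes given in full, in each of the 5 valves of each group, with the mean as a line and the SD as a bar. For MRPL47 and TIMM8B no pergolide or dexfenfluramine valve reaches a control or serotonin valve, and for MRPL16 and MRPS23 every pergolide valve lies above every serotonin valve; with total counts in place of TMM, MRPL47 was at −0.31 and TIMM8B at −0.87 with dexfenfluramine.

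The contrasts of the drugs with serotonin were not used in choosing the genes, although the same drug valves were. Pergolide and serotonin differed by an adjusted p under 0.05 in 14 of the 35 genes, 10 lower and 4 higher with pergolide, and in 27.5% of all tested genes. Dexfenfluramine and serotonin differed in 16, all lower with dexfenfluramine, and in 30.3% of all tested genes. The median log2 fold change was −0.26 for pergolide and −0.55 for dexfenfluramine (above 0 for each with total counts, as given below), beside 0.03 in both cases over all genes. The genes called lower against serotonin with both drugs were MRPL15, MRPL30, MRPL47, MRPS5, MRPS9, MRPS10, MRPS25 and TIMM8B. Those called with pergolide alone were MRPL13 and MRPS18A, which were lower, and MRPL16, MRPS23, MRPS28 and COA3, which were higher. CLPX, MRPL9, MRPL24, MRPL48, MRPL50, MRPS22, TIMM21 and TIMM23B were called lower with dexfenfluramine and not with pergolide. TIMM8B was at −1.59 ± 0.21 with pergolide and −1.88 ± 0.21 with dexfenfluramine, MRPL47 at −0.88 ± 0.15 and −1.12 ± 0.15, and COA3 at 1.13 ± 0.29 and 0.75 ± 0.29. Every pergolide valve lay below every serotonin valve for 4 genes (MRPL47, MRPS5, MRPS25 and TIMM8B) and 11.9% of all tested genes, and above for 2 (MRPL16 and MRPS23) and 8.38%. Every dexfenfluramine valve lay below every serotonin valve for 8 genes, namely MRPL9, MRPL30, MRPL47, MRPS5, MRPS22, MRPS25, TIMM8B and COA6, and for 12.2% of all tested genes.

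Against serotonin, scaling to total counts left 7 calls with pergolide, 4 of them higher, and 8 with dexfenfluramine, 4 of them higher, where 18.3% and 44.4% of all tested genes were called. The medians of the 35 genes turned to 0.06 and 0.02, above 0, or −0.29 and −0.55 relative to all genes. Over all tested genes the share of higher calls went from 45.1% to 85.4% with pergolide and from 45.9% to 94.7% with dexfenfluramine, while the all-gene medians moved to 0.35 and 0.57. With svaseq variables 9 genes were called with pergolide, 3 of them higher, and 8 with dexfenfluramine, 3 of them higher, beside 17.3% and 15.9% of all tested genes. With the cardiomyocyte covariate 17 were called with pergolide, 13 lower and 4 higher, and 16 with dexfenfluramine, 12 lower and 4 higher, beside 33.4% and 30.8%. Of the 14 calls of pergolide against serotonin, 8 were made whichever single valve was left out. The others were lost as follows: MRPS9 without serotonin 2, at −0.66, MRPS10 without serotonin 5 or pergolide 3, at −0.30, MRPL15 without serotonin 2 or 4 or pergolide 1, 4 or 5, at −0.49 to −0.34, MRPL13 without serotonin 1, 2, 4 or 5 or pergolide 1, 3, 4 or 5, at −0.33 to −0.29, MRPS18A without serotonin 2, 3 or 4 or pergolide 1, 3, 4 or 5, at −0.61 to −0.48, and MRPS28 without serotonin 1, 3, 4 or 5 or pergolide 1, 2, 3 or 5, at 0.44 to 0.59. Of the 16 calls of dexfenfluramine against serotonin, 13 were made in every such fit, and those lost were TIMM23B without serotonin 2, 4 or 5 or dexfenfluramine 1, 2 or 3, at −0.63 to −0.55, MRPL50 without serotonin 1, 2 or 4 or dexfenfluramine 1, 3, 4 or 5, at −0.57 to −0.49, and MRPL48 without serotonin 2, 3 or 4 or dexfenfluramine 2 or 3, at −1.08 to −0.84.

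Dexfenfluramine and pergolide were compared directly, a contrast that the choice of genes did not use, although it used these valves, and the doses were not matched. By edgeR 0 of the 35 genes and 0.0% of all tested genes were called. At an unadjusted p under 0.05 there were 6 of the 35, and 613 or 7.06% of all tested genes. DESeq2 called 4 of all tested genes and 0 of the 35, with 603 and 5 at that unadjusted level, and limma-voom called 0, with 712 and 6. The log2 difference was below 0 for 33 of the 35 genes, with a median of −0.25 beside −0.0028 over all genes. With total counts the median was −0.02, or −0.25 relative to all genes, with svaseq variables −0.07 and with the cardiomyocyte covariate −0.07. In these settings 20, 25 and 25 of the 35 genes were below 0. The 6 genes were MRPS14 at −0.69 (95% interval −1.06 to −0.32), TIMM8A at −1.08 (95% interval −2.06 to −0.10), TFB2M at −0.55 (95% interval −1.10 to −0.01), TIMM17A at −0.51 (95% interval −0.93 to −0.08), MRPL16 at −0.41 (95% interval −0.79 to −0.03) and TIMM21 at −0.36 (95% interval −0.66 to −0.05). For genes called lower against control with both drugs the interval held 0, as for TIMM8B at −0.29 (95% interval −0.75 to 0.18), MRPL47 at −0.25 (95% interval −0.56 to 0.07) and MRPS25 at −0.15 (95% interval −0.64 to 0.35).

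The 10 genes listed for dexfenfluramine alone had a median log2 fold change against control of −0.62 with dexfenfluramine and −0.30 with pergolide, where they ranged from −0.52 to 0.20 and 0 were called by edgeR, with 1 at an unadjusted p under 0.05. Of all tested genes edgeR called 24.8% with pergolide, and 37.1% had an unadjusted p under 0.05. Between the drugs the median difference of the 10 genes was −0.46, and 0 of these differences were called, beside 0.0% of all tested genes. Such groups were formed by how the study listed genes from these same valves under each drug, so that their differences between the drugs are descriptions of the listing. The 4 genes listed for pergolide alone had a median of 0.60 with pergolide and 0.21 with dexfenfluramine, and −0.41 between the drugs. The 20 genes listed for both drugs had a median of −0.20 between the drugs, with 18 below 0.

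Ribosomal proteins fall into those kept from the bacterial ancestor and those gained by mitochondria. The 14 genes with a bacterial counterpart had median log2 fold changes of −0.08, −0.49 and −0.69 with serotonin, pergolide and dexfenfluramine, and 8 were called with pergolide and 13 with dexfenfluramine. The 7 found in mitochondria alone were at −0.16, −0.49 and −0.73, with 4 and 5 called. Of all tested genes 24.8% and 28.9% were called, and these genes were selected on the same contrasts. With total counts the bacterial group was at −0.02 and 0.04 for the drugs, the latter above 0, and the other at 0.01 with pergolide and 0.0036 with dexfenfluramine. The serotonin medians turned to 0.04 and 0.15 with svaseq variables, and with total counts they were 0.05, above 0, and −0.03. The groups were not tested against each other.

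Lists of the wider pathway, 211 genes of the mitochondrial ribosome, its assembly and translation factors, import, nucleoid, proteolysis, complex IV assembly and their regulators, could be matched for 64 genes, 35 of them those above. The symbols come from the study's list of changed genes, so that these counts are also descriptions. Of the other 29 genes, 0 were called by edgeR with serotonin, 10 with pergolide (7 lower and 3 higher) and 18 with dexfenfluramine (15 lower and 3 higher), where 1.19%, 24.8% and 28.9% of all tested genes were called. The import motor HSPA9 was at 438 ± 108 CPM (SD, n = 5) in control, 368 ± 69.7 with serotonin, 253 ± 59.9 with pergolide and 199 ± 45.2 with dexfenfluramine. Its log2 fold changes for the drugs were −0.79 ± 0.20 and −1.14 ± 0.20, and those of its co-chaperone DNAJC19, mutated in a dilated cardiomyopathy with ataxia, −0.69 ± 0.22 and −0.95 ± 0.23. MTERF3, a regulator of mitochondrial transcription and ribosome assembly, was at −0.80 ± 0.24 and −1.38 ± 0.24, and the elongation factor GFM1 at −0.51 ± 0.20 and −0.71 ± 0.20, of which the former was not called. SCO1, a copper chaperone of complex IV, was at −0.92 ± 0.23 and −1.23 ± 0.24, and COX10, which takes part in making the heme of that complex, at −0.66 ± 0.29 and −0.86 ± 0.30, called with dexfenfluramine alone.

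The single-strand DNA-binding protein gene SSBP1 was at −0.41 ± 0.13 with pergolide and −0.60 ± 0.13 with dexfenfluramine, and the protease gene HTRA2 at −0.63 ± 0.13 and −0.42 ± 0.13; with total counts SSBP1 turned above 0 with both drugs and HTRA2 with dexfenfluramine, all below the median of all genes. Higher values were found for the co-chaperonin HSPE1, at 0.72 ± 0.17 and 0.48 ± 0.17, and for PTCD3, a protein of the small subunit, at 0.86 ± 0.27 and 0.76 ± 0.27, all called. Among regulators, the coactivators PPARGC1A and PPARGC1B, which drive mitochondrial gene expression, were at −1.21 ± 0.31 and −1.02 ± 0.31 with dexfenfluramine and −0.83 ± 0.30 and −0.77 ± 0.31 with pergolide, called in the former contrast alone. GABPB1, a subunit of a transcription factor of nuclear-encoded mitochondrial genes, was called higher with dexfenfluramine, at 0.32 ± 0.12. TFAM, POLRMT, NRF1 and GABPA, further regulators of mitochondrial transcription, could not be matched to an identifier. Of the 64 genes 27 were called with pergolide and 47 with dexfenfluramine, beside 24.8% and 28.9% of all tested genes. Without control 4 the latter count was 31, beside 23.8%. With svaseq variables the counts were 16 and 12, beside 13.3% and 11.4% of all tested genes. With total counts they were 13 and 18, beside 27.4% and 58.7%. The cardiomyocyte covariate gave 31 with pergolide and 22 with dexfenfluramine, beside 27.2% and 19.2%. The messages that these ribosomes translate, 13 encoded in mitochondrial DNA, were called in 0 of 13 with serotonin, 8 of 13 with pergolide and 13 of 13 with dexfenfluramine, all of these lower, beside 1.19%, 24.8% and 28.9% of all tested genes. They made up 9.36 ± 1.43% (SD, n = 5) of the counts of a valve in control, 9.17 ± 1.17% with serotonin, 6.93 ± 1.49% with pergolide and 5.75 ± 1.70% with dexfenfluramine.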

How the data were processed

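RNA from 20 rabbit tricuspid valves was measured, 5 in each group. The values are whole-number counts per Ensembl gene that the authors deposited without normalization; they depleted ribosomal RNA, made stranded libraries, aligned reads to oryCun2 with TopHat2 2.1.1 per the submitters' processing notes and counted with HTSeq. Symbols came from the study's list of changed genes. Here, counts were filtered with filterByExpr, TMM-normalized and fitted with edgeR 4.0.16 (R 4.3.3; glmQLFit and glmQLFTest) on all 20 valves with group means, and p-values were adjusted by Benjamini-Hochberg. Mean log2 CPM used a prior count of 2, and 95% intervals the test's degrees of freedom. The genes and lists were chosen with earlier results of these data known. Genes given valve by valve were, by rule, the 2 of each class with the largest absolute mean log2 fold change over both drugs, any listed for all treatments and those above 0 with both drugs, and other pathway genes were, per class and direction, the 2 called with the smallest p for dexfenfluramine and some regulators; the classes and bacterial counterparts were written after the data had been seen. Alternatives were DESeq2 1.42.0 and its size factors, upper-quartile factors, limma-voom 3.58.1 with or without svaseq (sva 3.50.0), 2 other filters on low counts, the replicate block, fits of 2 groups, an adjusted p under 0.01 and each valve left out. Total-count scaling, a cardiomyocyte covariate and leaving out control 3 and dexfenfluramine 3 were added after seeing the data.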

Additional observations from a re-analysis of the deposited data

Results flagged for a closer look

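In 88 groups of 5 valves examined, 2 held a valve whose gap to the nearest other exceeded 0.71 of the group's range, and chance gives about 1 in 20 groups. TIMM17A was at 17.1 CPM in pergolide 3, against 10.4 to 12.1 CPM in the other pergolide valves. The adipocyte marker sum was 70.0 CPM in control 4, against 21.95 to 33.9 CPM in the other control valves.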

How the results depend on the processing

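Of 4325 log2 fold changes recomputed under the alternatives, 4107 moved by less than the spread between valves and 23 changed sign from a called value. With total counts these were TOMM70 0.11, MRPS10 0.014, MRPS22 0.013 and SSBP1 0.029 with pergolide, CLPX 0.31, TOMM70 0.15, MRPS10 0.19, MRPL15 0.047, MRPS22 0.0036, MRPL30 0.14, MRPL13 0.18, MRPS18A 0.044, MRPL22 0.32, MRPL42 0.29, MRPS14 0.16, TIMM21 0.17, MRPL9 0.025, SSBP1 0.056 and HTRA2 0.25 with dexfenfluramine, and CLPX 0.17 for dexfenfluramine against serotonin; all lay below the median of all genes. With svaseq variables MRPL18 was at 0.037, MRPL9 at 0.14 and MRPS36 at 0.24 with dexfenfluramine; none of the 23 was called there, and the cause was not tested. Counts kept within 1.5 times the main count in 248 of 276 cases. The others, for pergolide against control, dexfenfluramine against control, pergolide against serotonin and dexfenfluramine against serotonin, were 7, 14, 7 and 9 of the 35 genes (17, 29, 14 and 16) at an adjusted p under 0.01, which is stricter by construction, 7, 7, 7 and 8 with total counts and 8, 5, 9 and 8 with svaseq; the cardiomyocyte covariate left 12 with dexfenfluramine, and no filter on low counts left 9 for pergolide against serotonin. In the same order 13.7%, 16.2%, 17.0% and 18.5% of all tested genes were called at 0.01. With total counts the shares were 27.4%, 58.7%, 18.3% and 44.4%, and with svaseq 13.3%, 11.4%, 17.3% and 15.9%. The share was 19.2% with dexfenfluramine under the covariate, and 15.7% for pergolide against serotonin without the filter. Of the 64 pathway genes (27, 47, 25 and 25), 11, 20, 11 and 16 were called at 0.01; with total counts 13, 18 and 12 in the first 3 comparisons; with svaseq 16 and 12 with the drugs, 15 for dexfenfluramine against serotonin and 1 with serotonin against control; with the covariate 22 with dexfenfluramine; and 3 with serotonin without control 3 and dexfenfluramine 3 together. With each valve left out in turn, the 35 genes gave 13 to 18, 20 to 28, 10 to 13 and 13 to 20 calls, and the pathway genes 21 to 32, 31 to 48 (31 without control 4), 17 to 22 and 21 to 29; no called gene changed sign, and 11 of 17 and 18 of 29 genes were called in each fit against control. In those fits 20.2% to 26.0%, 23.1% to 32.0%, 23.7% to 25.2% and 25.2% to 28.8% of all tested genes were called. With the replicate number as a block, the replicate block fit called 0 genes with serotonin, 17 with pergolide and 26 with dexfenfluramine, 12 for pergolide against serotonin and 16 for dexfenfluramine against serotonin, and 0, 28, 39, 21 and 25 pathway genes. Of all tested genes that fit called 0.0115%, 22.9%, 27.2%, 25.7% and 28.6% in the same order. Same-numbered valves showed little pairing. In 6 of 30 pairs the correlation of deviations was over 0.1. The values ran from −0.342 to 0.492, the highest being that of control 3 with dexfenfluramine 3. The valve of the same number correlated best in 7 of 60 cases. The labels do not say what the number stands for, and these correlations cannot show that same-numbered valves had nothing else in common. Low counts limit TIMM8A, COA6, COA7 and MRPL48 most.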
